A study of Mus musculus with 4 samples.

Results

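The polyamine metabolism genes were followed in neutrophils sorted from tumors and from blood of tumor-bearing mice. The set comprised 9 genes of the 18894 listed for either tissue: Odc1, Amd1, Srm and Sms, which make polyamines, Oaz1 and Azin1, which control the first step, Arg2, which supplies its substrate, and Sat1 and Smox, which break polyamines down. The genes were chosen by symbol, with the tumor and blood levels of these cells already known, so the tumor and blood levels are given as a description. All 9 were listed for blood and 8 for tumor, where Srm had no row. In the cells analysed, 7 had at least 1 UMI (unique molecular identifier, a counted RNA molecule) in tumor and 8 in blood.

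Both groups came from FVB mice, an inbred strain, with no treatment, that had been injected with Py7160 cells, a mouse mammary tumor line. Tumor neutrophils came from 3 tumors of about 1 cm taken 2 to 3 weeks after injection and released with enzymes, and blood neutrophils came from the same mice after red-cell lysis. Both were enriched on Ly-6G to about 90% and sorted as CD11b+ Ly6G+ to over 99%, per the labels. Mice were marked with hashtag antibodies (antibodies carrying a DNA tag), pooled by tissue and run as 1 Drop-seq library per tissue, a droplet method for single cells. Tissue therefore cannot be told apart from library or from how cells were freed, and the spread between mice is spread within a library. The labels do not say whether 1 hashtag marks the same mouse in both tissues.

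In all, 841 tumor cells (106, 564 and 171 in mice 1, 2 and 3) and 1375 blood cells (511, 456 and 408) were assigned to a mouse, with no barcode shared between them. Summed depth was 70612 to 385370 UMIs per mouse in tumor and 330296 to 436713 in blood, and the median cell held 572 UMIs in tumor and 655 in blood. Hashtag 2 made up 68.9% of the hashtag counts in near-empty tumor barcodes, and 67.1% of tumor cells were assigned to mouse 2. Of those cells, 230 had no call from the model-based hashtag caller HTODemux, and Smox in them was at 675 CPM (a gene's UMIs per 1000000 UMIs of all genes), against 788 CPM in the 278 tumor cells of mouse 2 that it gave to a mouse. The granule genes of immature neutrophils also stood apart in those 230 cells, with Camp at 4125 CPM and Ngp at 5364 CPM, against 14.9 CPM and 203 CPM in the 278 cells. HTODemux gave 243 tumor cells to mouse 2, all assigned to mouse 2 here, so the 278 include cells that it gave to mouse 1 or 3. Of the tumor cells it gave to mice 1 and 3, 71.6% and 74.6% had the same mouse here. Whether the cells of tumor mouse 2 mix mice was not tested. All 10 neutrophil markers were detected in both tissues, at a summed 79812 to 95281 CPM in tumor and 186875 to 212335 in blood. Acod1, a marker of activated myeloid cells, averaged 3188 ± 261 CPM in tumor and 10.8 ± 5.71 in blood, and the chemokine receptor gene Cxcr2 averaged 866 ± 83.1 in tumor and 6001 ± 129 in blood (SD, n = 3 mice each).

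Polyamines are small positively charged molecules that bind nucleic acids and are needed for growth and translation. Ornithine decarboxylase, encoded by Odc1, makes putrescine, which spermidine synthase (Srm) and spermine synthase (Sms) extend with groups supplied through S-adenosylmethionine decarboxylase (Amd1). Spermine oxidase (Smox) turns spermine back into spermidine and releases hydrogen peroxide and a reactive aldehyde, while the acetyltransferase of Sat1 tags spermidine and spermine for export or oxidation. Several of these proteins, Odc1 and Sat1 among them, are regulated strongly at translation and protein turnover, which RNA counts do not show.

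The catabolic genes held most of the set's UMIs in both tissues, and Smox had the largest fitted difference of the members tested (plot of levels by mouse). Smox was at 1048, 742 and 890 CPM in the 3 tumor mice, against 112, 111 and 112 CPM in the 3 blood mice. Every tumor mouse lay above every blood mouse. The blood levels rest on 49, 42 and 37 UMIs. Pooled blood cells had a 95% counting interval of 93.1 to 133 CPM, wider than the spread between these mice. The closeness of the blood levels therefore does not show how much the mice differ. The tumor mean was 893 ± 153 CPM and the blood mean 112 ± 0.929 CPM (SD, n = 3 mice each), from 464 UMIs in tumor and 128 in blood. On the log2 scale of the edgeR fit the difference was 2.97 (SE 0.16), the 246th highest of 3674 genes tested. Leaving out any mouse kept it between 2.83 and 3.12.

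Sat1 was the most abundant of the 9 genes by UMI count in each tissue. It was at 1784, 1539 and 1823 CPM in the tumor mice, against 1030, 1060 and 1096 CPM in the blood mice. The groups did not overlap, but their distance was far smaller than for Smox: 1715 ± 154 CPM in tumor and 1062 ± 32.8 CPM in blood (SD, n = 3 mice each), with a fitted log2 difference of 0.70 (SE 0.12). Without the filter on low counts the Sat1 difference was 0.41 and no longer passed the threshold. Smox, Arg2, Azin1 and Oaz1 also had lower estimates in that fit. The median of all genes lay at -0.15 in it, against -0.04 with the filter, but over different sets of genes (16032 and 3674). Why the Sat1 estimate fell was not tested. UMIs are counted at transcript ends and are not scaled by length, so comparisons between genes here are of UMI counts.

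**Figure D1:**
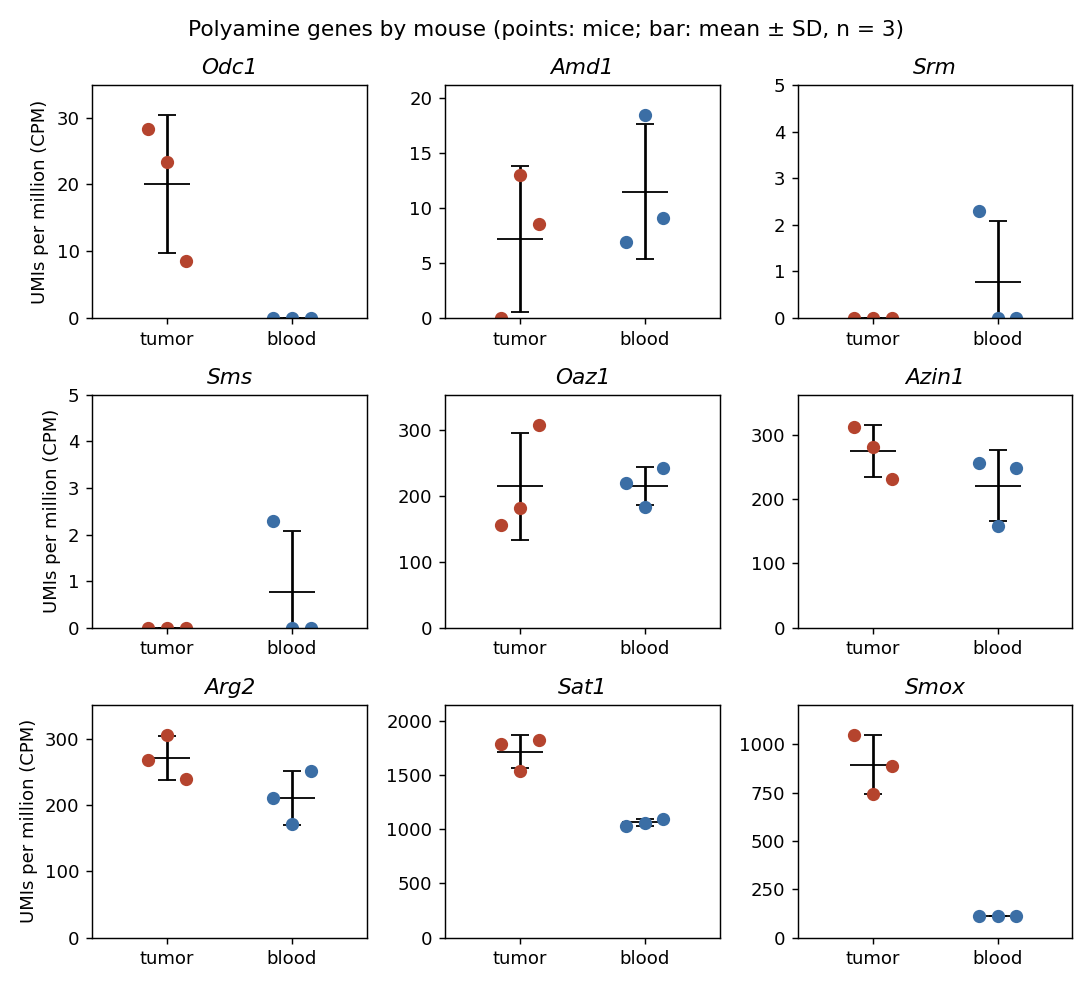
UMIs per 1000000 (CPM, vertical axis from 0, own scale per gene) of the 9 polyamine genes in tumor (left) and blood (right); points are mice and bars the mean ± SD over 3 mice. Smox, Sat1 and Odc1 have all tumor mice above all blood mice, while Oaz1, Azin1, Arg2 and Amd1 overlap and Srm and Sms are near 0.

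The genes of synthesis were close to the limit of detection in both tissues. Odc1 had 2, 9 and 1 UMIs in tumor mice 1, 2 and 3, against 0 UMIs in every blood mouse. This corresponds to 28.3, 23.4 and 8.56 CPM in tumor, and a count of 0 in blood allows up to 2.62 CPM over the group (3 counts). Set against that limit, the pooled tumor level of 20.9 CPM gives a bound of 8.01-fold higher in tumor. The bound takes the tumor count as exact, so it covers counting error in blood only. Tumor mouse 2 held 9 of the 12 UMIs, and without it the bound was 6.12-fold; without blood mouse 1, which lowers the blood depth, it was 4.96-fold. The 12 UMIs lay in 10 of 841 tumor cells, against 0 of 1375 blood cells, which allows a share of up to 0.218% of blood cells with a UMI. A single cell carried 3 of the UMIs. Pooled tumor cells held Odc1 at 20.9 CPM (95% interval 10.8 to 36.6) and tumor barcodes of 20 to 60 UMIs, taken as free RNA, held it at 18.7 CPM (6.06 to 43.5). Whether these UMIs came from the cells or from free RNA was not tested. Odc1 did not pass the filter on low counts. In the fit without that filter it was called higher in tumor, as were 7.69% of the 16032 genes tested there.

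Amd1 had 0, 5 and 1 UMIs in the tumor mice, against 3, 7 and 3 UMIs in the blood mice. Relative to depth, the tumor level was 0.924 times that of blood, with a 95% counting interval of 0.288 to 2.61, so a difference of either sign was not detectable at this depth. The Amd1 count is uncertain because the near-identical gene Amd2 and 5 processed pseudogenes can take its reads; Amd2 had 1 UMI in each tissue and Amd-ps4 had 4 UMIs in tumor and 0 in blood. Sms had 0 UMIs in tumor and 1 UMI in blood. Srm had 1 UMI in blood and no row in tumor, where it was taken as 0. A count of 0 in tumor allows up to 5.24 CPM, which holds for Srm only if its missing row means no UMIs. Neither synthase could be compared.

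The regulators of ornithine decarboxylase were abundant enough to compare and overlapped between tissues. Oaz1 encodes antizyme, which binds ornithine decarboxylase and sends it for degradation. It was at 156, 182 and 308 CPM in the tumor mice, against 220, 184 and 242 CPM in the blood mice. Its means were 215 ± 81.5 CPM in tumor and 215 ± 29.3 CPM in blood (SD, n = 3 mice each), with a fitted log2 difference of 0.01 (95% interval -0.46 to 0.48) whose sign turned in 10 of 17 alternatives. Tumor mouse 3 was the highest of the 6 and tumor mouse 1 the lowest. Some Oaz1 reads may also be counted at the pseudogene Oaz1-ps, which held 8 UMIs in tumor and 18 in blood.

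Azin1 encodes the antizyme inhibitor, which frees ornithine decarboxylase by binding antizyme. Its levels were 312, 280 and 231 CPM in tumor and 256, 158 and 248 CPM in blood. The means were 274 ± 40.6 CPM in tumor and 221 ± 54.7 CPM in blood (SD, n = 3 mice each), and the fitted log2 difference was 0.34 (95% interval -0.10 to 0.78). The ratio of Azin1 to Oaz1 UMIs was 2.00, 1.54 and 0.750 in the tumor mice, against 1.17, 0.857 and 1.03 in the blood mice, so the blood ratios lay inside the tumor range.

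Arg2 encodes the mitochondrial arginase, which splits arginine into ornithine and urea. It was at 269, 306 and 240 CPM in the tumor mice, against 211, 171 and 251 CPM in the blood mice, where mouse 3 exceeded tumor mouse 3. The means were 272 ± 33.4 CPM in tumor and 211 ± 40.1 CPM in blood (SD, n = 3 mice each). The fitted log2 difference was 0.46 (95% interval 0.05 to 0.86) and was just inside the threshold of an adjusted p of 0.05. That call was lost in 13 of 17 alternatives, among them the fit with the hashtag number as a block and the fits without tumor mouse 2 (0.29) or without blood mouse 1 (0.34), 2 (0.20) or 3 (0.43).

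Counted over the set, 5 of the 9 genes passed the filter on low counts. By edgeR's quasi-likelihood test with Benjamini-Hochberg adjustment, 3 of these (Smox, Sat1 and Arg2) were called higher in tumor, beside 30.2% of all genes tested, and 0 were called lower, beside 29.8%. At an unadjusted p under 0.05 no member was lower, and DESeq2 also called 0 lower. In 13 of the 17 alternatives 2 members were called higher. These were Smox and Sat1, except in the fit without the filter on low counts. There all 9 members were tested, and Smox and Odc1 were called higher, beside 7.69% of all genes tested. Among the 5 tested members, levels in every tumor mouse exceeded those in every blood mouse for Smox and Sat1, beside 29.8% of all genes tested. None had every tumor mouse below every blood mouse, beside 33.2%. Odc1 also had every tumor mouse above every blood mouse, but it was not tested in the main fit and lies outside these shares. It had 1 UMI in tumor mouse 3 and 0 in blood. Because the genes were selected with this contrast in view, these counts describe them and no more. In sums over cells, fewer expressing cells and less RNA per cell cannot be told apart.

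Set against each other, catabolic transcripts far outnumbered synthetic ones in both tissues, and the balance within catabolism differed between tissues. Summed over mice, tumor cells held 1396 UMIs of Smox and Sat1 and 18 of Odc1, Amd1, Srm and Sms. Blood cells held 1343 UMIs of the catabolic pair and 15 of the synthetic genes. The few synthetic UMIs were also made up differently: Odc1 had 12 in tumor and 0 in blood, and Amd1 6 in tumor and 13 in blood. The ratio of the sums was 77.6 in tumor (95% counting interval 48.9 to 131) and 89.5 in blood (54.1 to 160). Per mouse it was 100.0, 62.8 and 158.5 in tumor, against 99.8, 63.6 and 133.0 in blood, and the groups overlapped. With so few synthetic UMIs a tissue difference in this ratio was not detectable.

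The number of Smox UMIs per Sat1 UMI was 0.587, 0.482 and 0.488 in the tumor mice, against 0.109, 0.104 and 0.102 in the blood mice. The groups lay far apart, at 0.519 ± 0.0590 in tumor and 0.105 ± 0.00343 in blood (SD, n = 3 mice each). Smox took 26.2% ± 2.64 of all polyamine-gene UMIs in tumor and 6.10% ± 0.386 in blood. Sat1 took 50.5% ± 1.28 in tumor and 58.1% ± 3.65 in blood, so its share of the set was lower in tumor while its CPM was higher. The synthetic genes made up 0.818% ± 0.346 in tumor and 0.722% ± 0.321 in blood (SD, n = 3 mice each throughout).

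**Figure D2:**
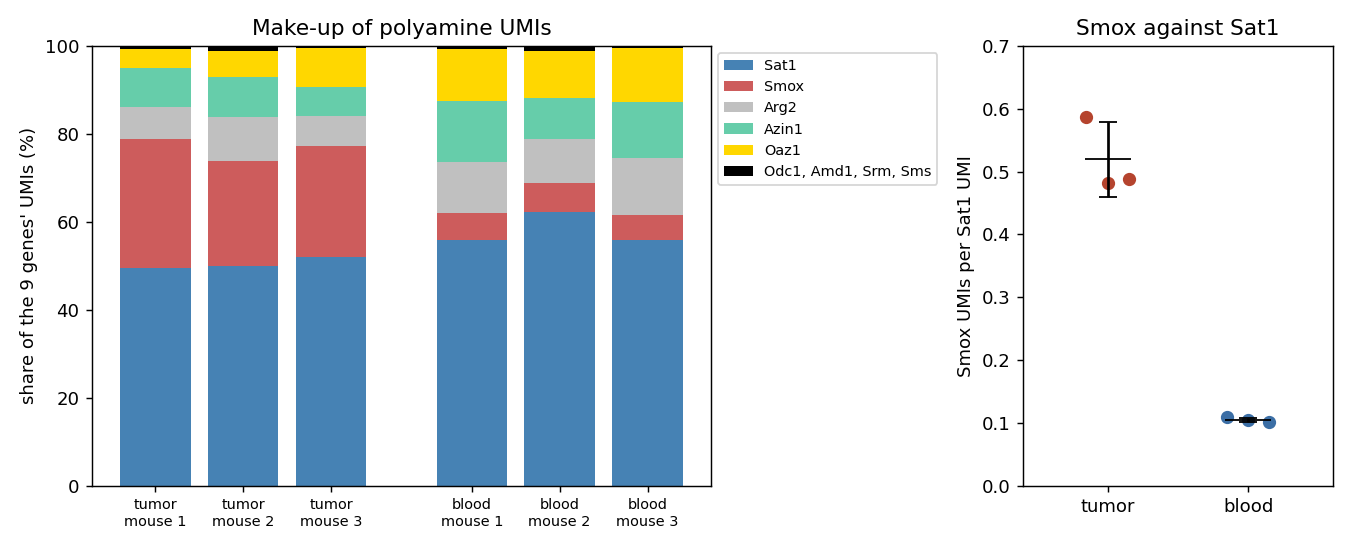
Left, the share of the 9 genes' UMIs (%) held by each gene or gene group, 1 bar per mouse, tumor then blood; right, Smox UMIs per Sat1 UMI by mouse with the mean ± SD (n = 3 mice). The Smox share is 24.1% to 29.1% in tumor mice and 5.72% to 6.49% in blood mice, and the black cap of synthetic genes is barely visible in all 6.

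Promoter windows of the genes that stood higher in every tumor mouse are shown as the annotated sequence at their starts. Reads counted at transcript ends do not locate the start that was used. RefSeq windows on GRCm38.p6 (from 250 bases before to 50 after the start site) were matched for 6 of the 9 genes. The sequences run 5′ to 3′ on the gene's strand, and capitals mark a match to the antioxidant response core TGACNNNGC on either strand.
Smox, chr2:131491612-131491911, plus strand: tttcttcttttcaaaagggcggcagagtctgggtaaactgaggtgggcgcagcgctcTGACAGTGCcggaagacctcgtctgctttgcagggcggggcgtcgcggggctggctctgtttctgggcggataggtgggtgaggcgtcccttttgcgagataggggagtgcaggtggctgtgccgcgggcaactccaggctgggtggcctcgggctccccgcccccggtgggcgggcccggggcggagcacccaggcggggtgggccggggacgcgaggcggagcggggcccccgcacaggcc
Sat1, chrX:155216400-155216699, minus strand: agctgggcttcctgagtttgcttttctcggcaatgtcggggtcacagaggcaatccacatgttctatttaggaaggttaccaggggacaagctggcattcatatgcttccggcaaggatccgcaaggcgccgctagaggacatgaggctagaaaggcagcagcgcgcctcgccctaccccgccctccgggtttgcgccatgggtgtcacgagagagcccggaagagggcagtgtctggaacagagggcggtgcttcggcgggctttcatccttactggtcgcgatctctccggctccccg
Odc1, chr12:17544623-17544922, plus strand: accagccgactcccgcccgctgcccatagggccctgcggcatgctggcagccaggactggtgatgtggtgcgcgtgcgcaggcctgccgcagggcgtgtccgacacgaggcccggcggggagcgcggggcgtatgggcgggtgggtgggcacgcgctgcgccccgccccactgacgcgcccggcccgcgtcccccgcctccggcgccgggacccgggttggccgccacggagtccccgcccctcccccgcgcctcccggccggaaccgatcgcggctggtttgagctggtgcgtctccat
Smox lies at chr2:131491496-131525922 (plus strand), Sat1 at chrX:155213132-155216449 (minus strand) and Odc1 at chr12:17544794-17551505 (plus strand) in GENCODE vM21, and all are annotated as protein coding. The RefSeq window of Smox lies wholly inside the GENCODE gene, downstream of the first base of that gene. Starts of single GENCODE transcripts were not compared. The Smox window held 1 antioxidant response core, whose first base was at position -193 from the start site, as did 12.4% of the 32851 promoter windows in the table. The Oaz1 window held the same core at position -13, and Oaz1 did not pass the test. The other motifs searched on both strands were the E-box CACGTG, the cyclic AMP response element TGACGTCA, the AP-1 motif TGANTCA, the hypoxia response core ACGTG (contained in the E-box), the TATA box TATAAA and the NF-kB motif. They occurred in 7.15%, 1.79%, 7.81%, 19.6%, 13.6% and 8.46% of all windows in that order, and in none of the 3 windows shown. The 3 windows were rich in G and C, at 71.0% for Smox, 60.3% for Sat1 and 78.0% for Odc1, where the median over all windows was 52.7%.

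Among cells, Smox was detected more widely in tumor, with a far smaller gap for Sat1. With every cell thinned to 441 UMIs, which left out 209 tumor and 254 blood cells, a Smox UMI was expected in 29.3% ± 3.05 of tumor cells and 4.74% ± 0.448 of blood cells (SD, n = 3 mice each). Unthinned, 286 of 841 tumor cells (34.0%, exact 95% interval 30.8 to 37.3) and 114 of 1375 blood cells (8.29%, 6.89 to 9.88) held a Smox UMI. For Sat1 the thinned shares were 42.4% ± 0.690 in tumor and 37.1% ± 0.506 in blood (SD, n = 3 mice each), and unthinned they were 49.1% (413 cells) in tumor and 51.9% (713 cells) in blood, the reverse order. At most 6 Smox UMIs were seen in a tumor cell and 2 in a blood cell; the largest Sat1 count was 20 in a tumor cell and 7 in a blood cell. The thinned shares for Oaz1, Azin1 and Arg2 were 7.78% to 10.96% in tumor and 8.09% to 9.17% in blood.

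The share that free RNA alone would give was set beside these shares. Barcodes of 20 to 60 UMIs were taken as free RNA, and a mixture like theirs would give a Smox UMI in 20.2% of thinned tumor cells and 2.30% of thinned blood cells, and a Sat1 UMI in 34.4% in tumor and 23.5% in blood. The observed Smox and Sat1 shares lay above these values in each tissue. For Odc1 the thinned share was 1.30% ± 0.634 of tumor cells (SD, n = 3 mice) beside 0.819% from free RNA, and for Amd1 it was 0.170% beside 0.492%. Smox was at 511 CPM (95% interval 429 to 604) in these barcodes in tumor and 52.6 (28.0 to 90.0) in blood, so the tissue difference was also present there.

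Smox and Sat1 UMIs were found together in 159 tumor cells and 66 blood cells. In tumor, 38.5% of the 413 cells with a Sat1 UMI and 29.7% of the 428 without had a Smox UMI, but the cells with Sat1 were deeper (median 647 UMIs, against 512.5 without). In blood, 9.26% of the 713 cells with Sat1 and 7.25% of the 662 without had a Smox UMI, at median depths of 756 and 588 UMIs. The part of depth in this overlap was not tested.

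The number of Smox UMIs per Sat1 UMI was compared between classes of barcodes within a tissue, and over the 4 classes given first the counting intervals overlapped. The ratio was 0.498 in tumor cells with a mouse (95% interval 0.444 to 0.557), 0.547 in tumor barcodes without one (0.403 to 0.737), 0.500 in tumor barcodes of 100 to under 200 genes (0.417 to 0.598) and 0.535 in tumor barcodes of 20 to 60 UMIs (0.432 to 0.661). In blood the same classes gave 0.105 (0.0871 to 0.126), 0.115 (0.0662 to 0.187), 0.156 (0.0933 to 0.247) and 0.0867 (0.0451 to 0.153). With cells split into 3 groups by detected genes, from few to many, it was 0.500, 0.502 and 0.494 in tumor and 0.118, 0.111 and 0.0967 in blood. These intervals cover counting error only.

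**Figure D3:**
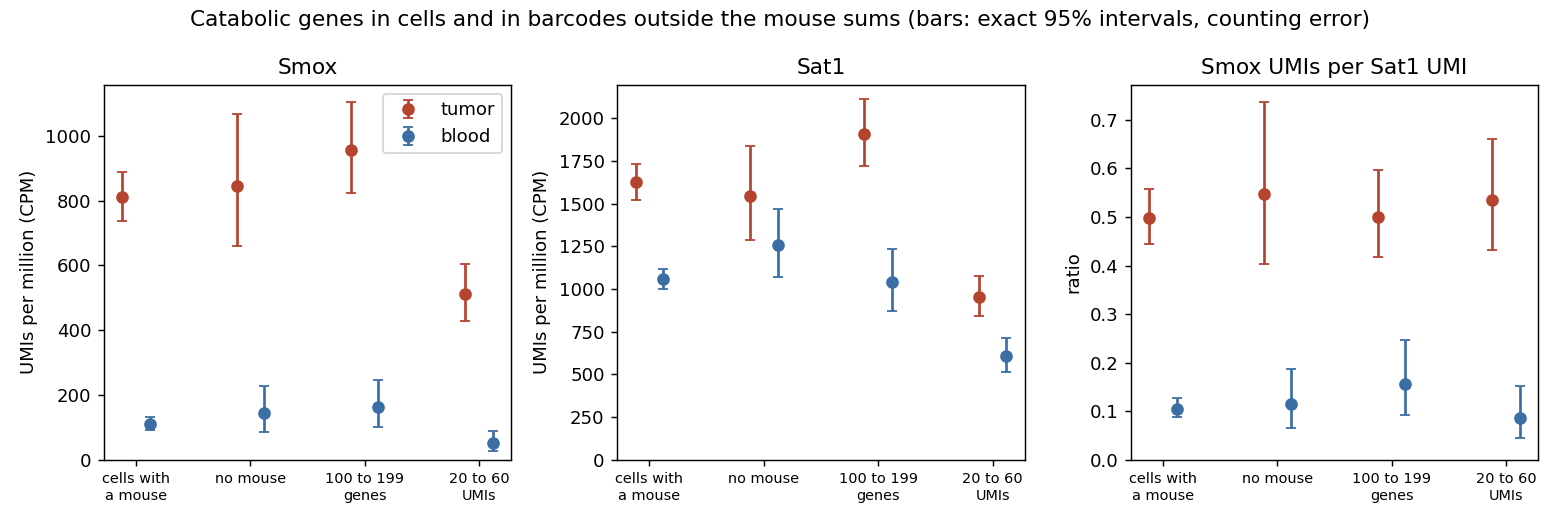
Smox and Sat1 in CPM and their ratio (vertical axes from 0) in cells with a mouse, cells with no assigned mouse, barcodes of 100 to under 200 genes and barcodes of 20 to 60 UMIs, tumor (red, left of each pair) and blood (blue); points are pooled values and bars exact 95% intervals for counting error. The tumor ratio stays between 0.498 and 0.547 and the blood ratio between 0.0867 and 0.156.

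Within tumor neutrophils, Smox and Arg2 were higher in cells with an Acod1 UMI in each mouse, while Sat1 differed by less than the spread between mice. In the 510 tumor cells with an Acod1 UMI, Smox was at 1257, 929 and 1089 CPM in mice 1, 2 and 3, against 595, 461 and 508 CPM in the 331 cells without. Every mouse had the higher Smox level in the Acod1 cells, at 1092 ± 164 CPM with Acod1 and 522 ± 67.8 CPM without (SD, n = 3 mice). Arg2 was at 309, 383 and 298 CPM with Acod1 and 183, 191 and 127 CPM without, again higher in each mouse. Sat1 averaged 1719 ± 162 CPM with Acod1 and 1718 ± 213 CPM without, and Azin1 268 ± 128 CPM with and 272 ± 157 CPM without (SD, n = 3 mice each). Oaz1 was at 165, 146 and 207 CPM with Acod1 and 137, 237 and 508 CPM without, in mixed order. Odc1 had 5 UMIs in the cells with Acod1 and 7 in those without.

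The ratio of Smox to Sat1 UMIs was 0.618 (95% interval 0.541 to 0.706) in tumor cells with Acod1 and 0.296 (0.235 to 0.370) in those without, where it still exceeded the 0.105 of blood cells. The Acod1 cells were deeper, with a median of 615 UMIs against 518, and an Acod1 UMI can itself come from free RNA; the part of either was not tested. Across the 3 groups of tumor cells by detected genes the ratio was between 0.494 and 0.502. This comparison within tumor cells was not tested.

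**Figure D4:**
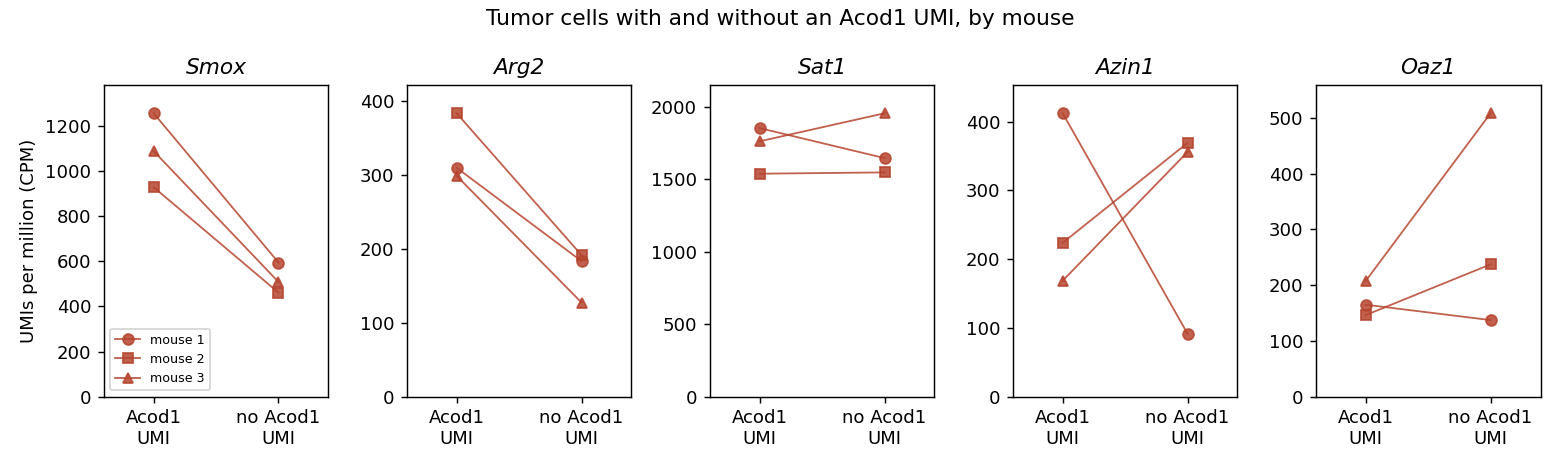
UMIs per 1000000 (CPM, vertical axis from 0, own scale per gene) of 5 polyamine genes in tumor cells with (left) and without (right) an Acod1 UMI; each line is a mouse. Smox and Arg2 are higher with Acod1 in all 3 mice, while Sat1, Azin1 and Oaz1 have mice in both directions.

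Cells carrying markers of other cell types held smaller shares of the catabolic UMIs than of all UMIs. Such cells, with at least 2 UMIs of macrophage, MHC class II, T cell, B cell, epithelial or stromal markers, numbered 79 in tumor and 112 in blood. They held 14.7% of UMIs, 11.6% of Smox UMIs and 12.4% of Sat1 UMIs in tumor, and 12.9%, 10.2% and 9.38% of the same in blood. Monocyte or macrophage markers summed to 312 to 2088 CPM in tumor mice (10 of 10 detected) and 222 to 291 CPM in blood mice (3 of 10 detected, with C1qa, C1qb, C1qc, Mrc1, Ms4a7 and Arg1 among those at 0). MHC class II genes summed to 156 to 2854 CPM in tumor mice, with the lowest value in mouse 1, and to 36.6 to 133 CPM in blood mice. Erythroid markers were at 0 in tumor and at 13960 to 22155 CPM in blood. Granule genes of immature neutrophils summed to 1983 to 6799 CPM in tumor and 6201 to 13356 CPM in blood, with Mpo and Elane at 0 in both. Epithelial markers reached at most 17.1 CPM in tumor and 72.7 CPM in blood, with Krt18, Krt14, Krt5, Cdh1 and Krt19 at 0 in both tissues and Epcam at 0 in tumor. T cell markers summed to 8.56 to 38.9 CPM in tumor (2 of 7 detected) and 99.9 to 345 CPM in blood (7 of 7), B cell markers to 0 to 34.2 CPM in tumor and 32.1 to 42.4 CPM in blood, and stromal markers to 36.3 to 51.3 CPM in tumor and 4.58 to 15.8 CPM in blood. Beyond the values above, the part of these cells in the results was not tested.

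Levels just inside and just outside the limits on cells were read once. Tumor barcodes within 20 genes above the limit of 200 had Smox at 958 CPM and Sat1 at 1271 CPM, and those within 20 genes below it had Smox at 765 CPM and Sat1 at 1510 CPM. In blood the same classes had Smox at 218 CPM inside and 154 CPM outside, and Sat1 at 1473 CPM inside and 1054 CPM outside. At the hashtag limit, tumor cells with 70% to 75% of their hashtag counts from 1 hashtag had Smox at 864 CPM and those with 65% to 70% had 670 CPM. Sat1 in them was at 2643 CPM (95% interval 1974 to 3466) inside and 1645 CPM outside, where all tumor cells with a mouse had 1627 CPM. Smox per Sat1 UMI was 0.327 (0.177 to 0.575) in the tumor cells just inside this limit and 0.754 (0.509 to 1.11) in those just inside the limit on genes. Blood cells at the hashtag limit held 2 Smox UMIs inside and 4 outside, with Sat1 at 1214 CPM inside and 1383 CPM outside. Tumor barcodes with 10% to 15% mitochondrial UMIs held 1 Smox UMI in 11 cells and those with 15% to 20% held 2 in 9 cells, with Sat1 at 1139 CPM inside and 1360 CPM outside. Odc1 had 3 UMIs in the 11 cells and 0 in the 9 cells. In blood the same classes held 5 Smox UMIs in 98 cells and 0 in 7 cells, with Sat1 at 1099 CPM inside and 816 CPM outside.

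A wider list was also chosen with earlier results of these data known, so its counts and p-values are given as a description. Its 45 genes around the pathway covered substrate supply, transport, relatives, regulators and hypusine formation. Of these, 11 passed the filter on low counts: 5 rose in tumor (background 30.2%), 2 fell (background 29.8%) and 4 did not pass the test, and the median log2 difference was 0.37 beside -0.04 over all genes tested. Of the 34 not tested, 12 had 0 UMIs in both tissues, among them the catabolic relatives Paox, Sat2 and Satl1 and the antizyme relatives Oaz3 and Azin2. The polyamine oxidase Paox, which acts on the acetylated products of Sat1, was thus not detected in either tissue.

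Slc7a11, the cystine and glutamate exchanger, had the largest rise of the 11. It was at 623, 571 and 642 CPM in the tumor mice, against 11.4, 23.7 and 21.2 CPM in the blood mice, a log2 difference of 5.04 (SE 0.23, edgeR adjusted p = 9.9e-12). Its partner chain Slc3a2, also linked to polyamine transport, was at 467, 449 and 265 CPM in tumor and 32.1, 5.26 and 15.1 CPM in blood (log2 difference 4.46, SE 0.34, edgeR adjusted p = 7.31e-09). Both were above all blood mice in each tumor mouse.

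Mat2a makes S-adenosylmethionine, the substrate of the enzyme encoded by Amd1. It was at 113, 88.2 and 34.2 CPM in tumor and 6.87, 5.26 and 12.1 CPM in blood, a log2 difference of 3.31 (SE 0.48, edgeR adjusted p = 1.46e-05). Its regulatory partner Mat2b averaged 161 ± 58.2 CPM in tumor and 110 ± 14.4 CPM in blood and did not pass the test (SD, n = 3 mice each, edgeR adjusted p = 0.255). Nfe2l2, which encodes the oxidative stress factor Nrf2, was at 637, 1009 and 1078 CPM in tumor and 412, 371 and 409 CPM in blood (log2 difference 1.27, SE 0.17, edgeR adjusted p = 5.84e-06). Mxd1, a Myc antagonist, was at 2747, 2123 and 2430 CPM in tumor and 1223, 887 and 1120 CPM in blood (log2 difference 1.18, SE 0.14, edgeR adjusted p = 1.35e-06). Myc itself had 2 UMIs in tumor and 1 in blood.

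Oaz2, another antizyme, fell in tumor; a difference between Oaz2 and Oaz1 was not tested. It was at 0, 18.2 and 17.1 CPM in the tumor mice, against 59.5, 55.3 and 93.9 CPM in the blood mice, a log2 difference of -2.06 (SE 0.48, edgeR adjusted p = 0.00144). Aldh2, a mitochondrial aldehyde dehydrogenase, was at 113, 166 and 111 CPM in tumor and 302, 305 and 239 CPM in blood, a log2 difference of -0.94 (SE 0.21, edgeR adjusted p = 0.00123). Oat, which moves ornithine toward other amino acids, Max and Eif5a, the protein that carries the spermidine-derived hypusine, did not pass the test, with log2 differences of -0.55, -0.25 and 0.09 in that order. The arginase gene Arg1 had 3 UMIs in tumor and 0 in blood.

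**Figure D5:**
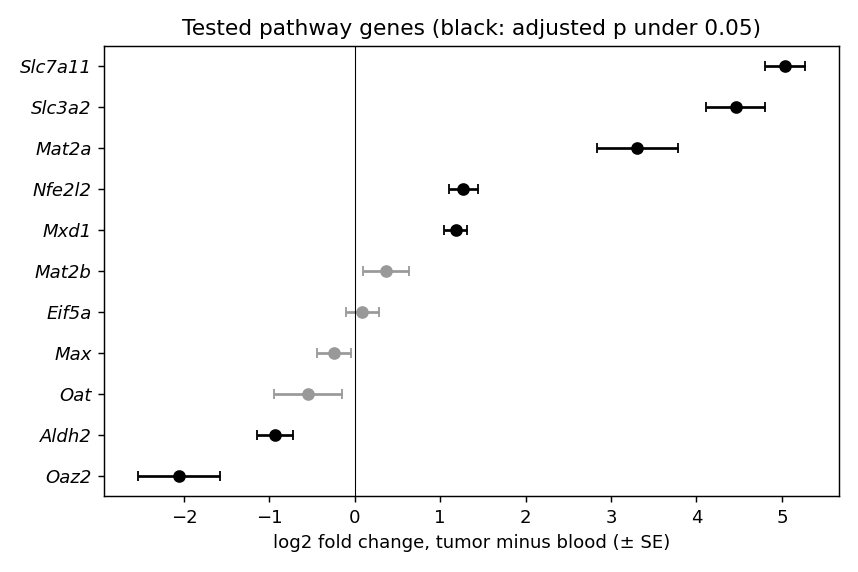
Fitted log2 difference, tumor minus blood (horizontal axis, bars ± SE), of the 11 pathway genes that passed the filter on low counts; black marks genes past the adjusted p of 0.05. Slc7a11, Slc3a2, Mat2a, Nfe2l2 and Mxd1 lie to the right, higher in tumor, and Oaz2 and Aldh2 to the left.

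The genes most like each of the tissue-differing members were found by Pearson correlation of log2 CPM over the 6 mouse sums. For Smox these were Pdcd1lg2 (r = 0.9997), Ier3 (0.9992) and Plcxd2 (0.9991), for Sat1 Psmb6 (0.9979), Sh2b2 (0.9976) and Havcr2 (0.9968), and for Odc1 Gm9320 (0.9960), Cdadc1 (0.9958) and Ewsr1 (0.9951). The 6 sums form separate tumor and blood clusters, so a high value here largely restates the difference between tissues. Odc1 did not pass the filter on low counts and had 0 UMIs in every blood mouse. Its blood values here therefore hold only an added constant of 2 counts and the depth of each sum. The genes listed for Odc1 thus do not show a shared pattern among blood mice. Ier3, an early response gene, averaged 1599 ± 304 CPM in tumor and 107 ± 11.2 CPM in blood (SD, n = 3 mice each).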

How the data were processed

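The authors deposited raw UMI counts per gene and barcode and raw hashtag counts per barcode for each tissue, 10000 RNA barcodes per file. Per the submitters' processing notes, the tools and builds were STAR and mm10. How genes were counted, on which annotation, with or without strand, and whether barcodes were filtered is not given in the sources used here.

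Barcodes with at least 200 detected genes and at most 15% mt- UMIs were kept and assigned to the mouse whose hashtag held at least 70% of hashtag counts. UMIs were summed per mouse and tissue. Totals of assigned cells were 572844 UMIs in tumor and 1147068 in blood. Doublets were treated by the hashtag rule alone, which cannot see doublets within a mouse. The main test was edgeR 4.0.16 (quasi-likelihood, filterByExpr, TMM, Benjamini-Hochberg over all genes tested, threshold 0.05), and the fit was tested on simulated counts. Alternatives were DESeq2 1.42.0, no TMM, no low-count filter, a replicate block, each mouse left out, HTODemux (Seurat 5.3.0), stricter hashtag and gene limits, no mt- limit, thinning, and removal of cells with other types' markers. Intervals and floors (3 counts) cover counting error only. Per-cell shares used expected detection after thinning to 441 UMIs.

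Members and lists were chosen with earlier results of these data known. All 9 members were named, plus pathway genes past the threshold with up to 6 largest changes per direction, and the 3 nearest genes for Odc1, Sat1 and Smox. Other genes were named after their values were seen, except Acod1 and Cxcr2, which check the tissues.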

Additional observations from a re-analysis of the deposited data

Results flagged for a closer look

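Barcodes that entered no mouse sum carried some polyamine genes at levels whose counting interval lay above that of the blood cells. In tumor barcodes of 100 to under 200 genes, Smox was at 956 CPM, Sat1 at 1912 CPM, Arg2 at 375 CPM and Odc1 at 20.6 CPM. In tumor barcodes that passed the filters without a mouse, Smox was at 846 CPM and Sat1 at 1546 CPM. In tumor barcodes of 20 to 60 UMIs, Smox was at 511 CPM and Odc1 at 18.7 CPM. In the assigned blood cells, pooled levels were 112 CPM for Smox, 1059 CPM for Sat1, 209 CPM for Arg2 and 0 for Odc1. The blood barcodes of 100 to under 200 genes held Smox at 162 CPM and Sat1 at 1041 CPM.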

How the results depend on the processing

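Of the 17 alternatives, the limit of at least 10 hashtag counts removed no cell and so repeated the main result. Smox and Azin1 kept their direction and their side of the threshold in all 17. Smox lay between 2.69 and 3.12 on the log2 scale and Azin1 between 0.02 and 0.52. Sat1 lost its call in 1, without the low-count filter (0.41), and ranged from 0.58 to 0.79 over fits leaving out a mouse. Arg2 lost its call under DESeq2 (0.37), without TMM (0.44), without the low-count filter (0.19), with HTODemux (0.36), with a hashtag share of at least 90% (0.41), with at least 300 genes (0.50), without the mt- limit (0.45) and after thinning (0.36), and ranged from 0.20 to 0.53 over fits leaving out a mouse. The hashtag number as a replicate block gave Arg2 0.46 without a call and 2 members higher, and left every other member's call as it was; over all genes it called 993 higher and 980 lower. Deviations of same-numbered tumor and blood sums correlated at 0.02, 0.01 and -0.02, so the data do not show that the numbers pair the mice. Oaz1, never called, turned sign under DESeq2 (-0.035), without TMM (-0.014), without the low-count filter (-0.25), with a hashtag share of at least 90% (-0.062), with at least 300 genes (-0.24), without the mt- limit (-0.0022), and without tumor mouse 3 (-0.25) or blood mouse 1 (-0.08), 2 (-0.22) or 3 (-0.07); over fits leaving out a mouse it ranged from -0.25 to 0.23. Thinned cells gave 622 genes higher and 709 lower, against 1111 and 1094; fewer genes were tested there. The same alternatives were applied to the pathway list after seeing the data: 4 to 7 genes were called higher and 1 or 2 lower, with 1 lower after thinning, where Oaz2 no longer passed the low-count filter, and each of the 7 named pathway genes was called in the same direction wherever it was tested. The catabolic to synthetic ratio, as a mean over the mice, was 107 in tumor and 98.8 in blood. This mean was 36.5 in tumor and 9.38 in blood with Smox alone as numerator. With Arg2 counted as synthesis it was 8.92 in tumor and 5.32 in blood. Unthinned shares were 34.0% in tumor and 8.29% in blood for Smox, and 49.1% in tumor and 51.9% in blood for Sat1. The Sat1 share was 40.1% in tumor and 36.2% in blood with at least 300 genes, and 40.8% in tumor with HTODemux. The Odc1 bound, which takes the tumor count as exact, was 4.96-fold or more in all 12 alternatives, the hashtag-count limit among them. Causes were not tested except where stated. Single-digit synthesis counts and a median of 572 UMIs per tumor cell limit what could be compared.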
